A study of Mus musculus with 202 samples.

Results

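Among E-cadherin-positive (Ecad+) pancreatic cancer cells in culture, 31 of 100 cells carried appreciable RNA of Ddit3, the gene of the stress transcription factor CHOP, and 36 of 100 carried little or none. The 2 classes were chosen by Ddit3 itself: Ddit3-high cells had a value of at least 4 on the log2(TPM + 1) scale, or 15 TPM (transcripts of the gene per 1000000 transcripts), and Ddit3-low cells a value below 2, or 3 TPM. The 33 Ecad+ cells between these values were left out. The cells belong to a KPC line of pancreatic ductal adenocarcinoma, from a mouse model of this cancer. The line came from a liver metastasis of a male mouse and was used at passages 4 to 6 in DMEM with 10% FBS. It was dissociated with trypsin, labelled with an antibody to E-cadherin and sorted; no stress-inducing agent is named. Values were given for 104 Ecad+ and 98 Ecad- libraries, each from 1 cell captured on a Fluidigm C1 device, in 3 library sets whose meaning is not stated. The values of 5 library pairs correlated above 0.97, each pair was averaged as 1 cell, and 197 cells remained, of which 100 were Ecad+ and 97 Ecad-. No label names separate cultures, so each sorted fraction is 1 sample of 1 line, no test was made and no p-value is given.

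CHOP is made when the integrated stress response is active: a stress kinase phosphorylates the initiation factor eIF2alpha, general translation slows, and translation of the transcription factor ATF4 is favoured. ATF4 turns on genes of amino acid supply and redox balance and, with CHOP, feedback genes such as Trib3, Chac1 and Ppp1r15a. Stress in the endoplasmic reticulum (ER), lack of amino acids and mitochondrial faults can all start this response, and CHOP is known for its part in growth arrest and cell death after lasting stress.

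Ddit3 (ENSMUSG00000025408, chromosome 10, 127290774 to 127296288, mm10) ran from 15.6 to 895 TPM in the Ddit3-high cells, with a median of 24.1 TPM, against 0 to 2.90 TPM in the Ddit3-low cells, with a median of 0.221 TPM. These values chose the cells and are a description only. Of the Ddit3-high cells 19 were under 30 TPM, and 4 were above 100 TPM, at 895, 507, 465 and 147 TPM. Of the Ddit3-low cells 15 were listed at 0. The cells nearest the upper limit had log2 values of 4.05 and 4.11 inside it and 3.96 and 3.90 outside it, and those nearest the lower limit had 1.96 and 1.96 inside it and 2.04 and 2.08 outside it. The cell at 3.96 is an averaged pair whose libraries stood at 4.17 and 3.72. Both classes occurred in each library set, with 10 Ddit3-high and 10 Ddit3-low cells in set 1, 7 and 13 in set 2, and 15 and 14 in set 3, an averaged pair being counted in each of its sets. Of the Ecad+ cells 31.0% (exact Clopper-Pearson 95% interval 22.1% to 41.0%) were thus past the upper limit, against 82 of 97 (84.5%, 75.8% to 91.1%) of the Ecad- cells of the same line. Here and below, such intervals count each cell as an independent draw and take in counting error alone. The Ecad- median was 264 TPM, and 3 of the 31 Ddit3-high Ecad+ cells were above it.

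**Figure D1:**
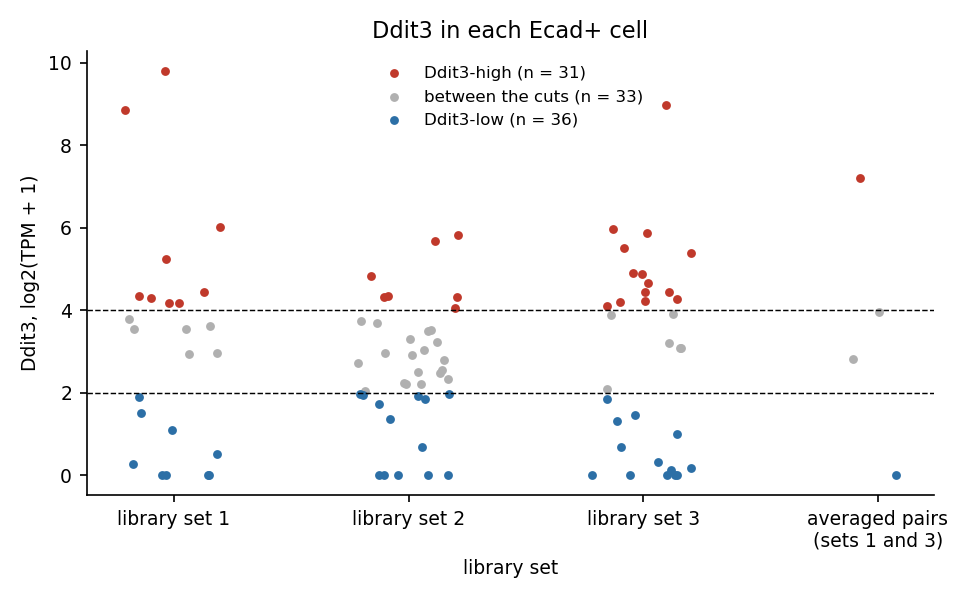
Ddit3 on the log2(TPM + 1) scale in each of the 100 Ecad+ cells, by library set, with averaged pairs apart and dashed lines at 4 and 2. Ddit3-high cells (n = 31) and Ddit3-low cells (n = 36) occur in each set, and 4 cells stand above the rest.

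The 2 classes had similar numbers of detected genes, with a median of 10162 (8231 to 11762) in Ddit3-high cells and 10329 (8353 to 12094) in Ddit3-low cells. Genes at 10 TPM or more were more numerous in Ddit3-high cells, with medians of 4906 (4078 to 5955) and 4506.5 (3443 to 5688) in the same order. The share of TPM on mitochondrial genes was lower in Ddit3-high cells, with a median of 23.8% (0.269% to 52.2%) against 34.8% (15.3% to 65.5%) in Ddit3-low cells. It was under 10% in 3 Ddit3-high cells and in 0 Ddit3-low cells. The part of this share in the results below was not tested. Some results are also given without those 3 cells, or with each cell rescaled without mitochondrial and ribosomal protein genes. Cdh1, which encodes the E-cadherin used for sorting, had a median of 38.1 TPM (3.70 to 130.5) in Ddit3-high cells and 32.8 TPM (11.3 to 105) in Ddit3-low cells, and no cell of either class was at 0. Lineage markers of other cells were few: 8 of 13 immune genes, among them Ptprc, were at 0 in every cell of both classes, as were 6 of 10 fibroblast genes with Pdgfrb and 4 of 8 endothelial genes with Pecam1. The same held for 4 of 8 hepatocyte genes with Alb and for 8 of 11 genes of acinar or endocrine cells with Cpa1. Summed TPM of the immune list was 0 to 80.8 in Ddit3-high and 0 to 126 in Ddit3-low cells. That of the fibroblast list was 0 to 0.252 in Ddit3-high and 0 to 5.03 in Ddit3-low cells, and that of the endothelial list 0 to 1.11 in Ddit3-high and 0 to 1.05 in Ddit3-low cells. That of the acinar and endocrine list was 0 to 18.2 in Ddit3-high and 0 to 17.8 in Ddit3-low cells. The hepatocyte sum was 0.120 to 253 TPM in Ddit3-high and 0.820 to 68.0 TPM in Ddit3-low cells, with Ttr and Apob the only members past the filter used below, and its part in the results was not tested.

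Differences below are the mean log2(TPM + 1) of Ddit3-high cells minus that of Ddit3-low cells. A gene counts as past the fold where this difference is at least 1 in size and has the same sign in each library set. Of 6829 genes that averaged 5 TPM or more and were above 0 in at least 10% of Ecad+ cells, Ddit3 not counted, 160 were higher past the fold (2.34%) and 164 were lower (2.4%). The median difference over all these genes was 0.19, and 0.44, 0.11 and 0.02 in library sets 1, 2 and 3. Centred on that median, 69 genes were higher and 237 lower, so the balance between directions depends on the scaling. The 164 lower genes held 38 of the 43 listed genes of G2 phase and mitosis. The 160 higher genes held 7 listed genes of the integrated stress response, 6 of autophagy and lysosome, and 4 NRF2 and glutathione genes. Most of the 160 were in none of the pathway lists used below.

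Regulators and feedback genes of the integrated stress response were higher in Ddit3-high cells. Of 27 genes in this list, Ddit3 not counted, 18 passed the filter, and 7 of these were higher past the fold and 0 lower, beside 2.34% of all genes. The list median was 0.91, with 1.19, 0.88 and 0.30 in sets 1 to 3, against 0.19 for all genes. With no minimum mean it was 0.47. Trib3, Chac1, Gadd45a and Gdf15 averaged under 5 TPM in Ddit3-low cells and passed the filter through the other cells. They are 4 of the 7 genes past the fold, so that count depends on the filter. Without the 4 cells above 100 TPM of Ddit3 the list median was 0.60.

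Nupr1, a small chromatin protein induced by ATF4, was shifted over most cells. It stood at 0.169 to 1078 TPM in Ddit3-high cells, with a median of 206, and at 9.14 to 538 TPM in Ddit3-low cells, with a median of 42.8. In 29 of 31 Ddit3-high cells it was above the Ddit3-low median. The difference was 1.92, and 1.99, 2.52 and 1.36 within sets. The Ecad+ cells between the limits had a median of 51.9 TPM, nearer to the Ddit3-low cells.

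Chac1, which degrades glutathione, and Trib3, a pseudokinase that restrains ATF4 and CHOP, were instead high in a minority of cells. Chac1 was above 0 in 14 of 31 Ddit3-high cells, reaching 188 TPM, and in 2 of 36 Ddit3-low cells, reaching 8.70 TPM, with a median of 0 in both classes. Trib3 was above 0 in 13 Ddit3-high cells, reaching 191 TPM, and in 5 Ddit3-low cells, reaching 5.64 TPM. The differences were 1.94 for Chac1 and 1.49 for Trib3, and the classes overlapped at 0 for both. Without the 4 cells above 100 TPM of Ddit3, an alternative chosen after seeing the data, they were 1.36 for Chac1 and 0.92 for Trib3, and without the 3 cells under 10% mitochondrial share 1.42 and 0.99. Without library set 1 the Trib3 difference was 0.93, under the fold. At a level of 10 TPM, 10 of 31 Ddit3-high cells had Chac1 (32.3%, 16.7% to 51.4%) against 0 of 36 Ddit3-low cells (0% to 9.74%).

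Gadd45a, a growth-arrest gene, had a median of 8.34 TPM (0 to 132) in Ddit3-high cells and 0.259 TPM (0 to 24.5) in Ddit3-low cells, a difference of 1.65. Eif4ebp1, which holds back cap-dependent translation, had 153 TPM (28.9 to 1023) in Ddit3-high cells and 68.4 TPM (10.5 to 252) in Ddit3-low cells, a difference of 1.26. Crebrf and Gdf15, a secreted stress hormone, differed by 1.23 and 1.12. Atf4 itself had a median of 79.4 TPM (2.45 to 655) in Ddit3-high cells and 44.0 TPM (0 to 145) in Ddit3-low cells. Its difference of 0.93 did not reach the fold, and within sets it was 2.09, 0.69 and 0.36. Atf3 and Ppp1r15a, which both respond quickly to stress, did not have the same sign in each set. Atf3 had a median of 25.5 TPM in Ddit3-high and 6.87 TPM in Ddit3-low cells with set differences of 0.70, 1.79 and -0.32, and Ppp1r15a, the phosphatase subunit that reverses eIF2alpha phosphorylation, had 22.3 TPM in Ddit3-high and 25.2 TPM in Ddit3-low cells, a difference of 0.11.

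**Figure D2:**
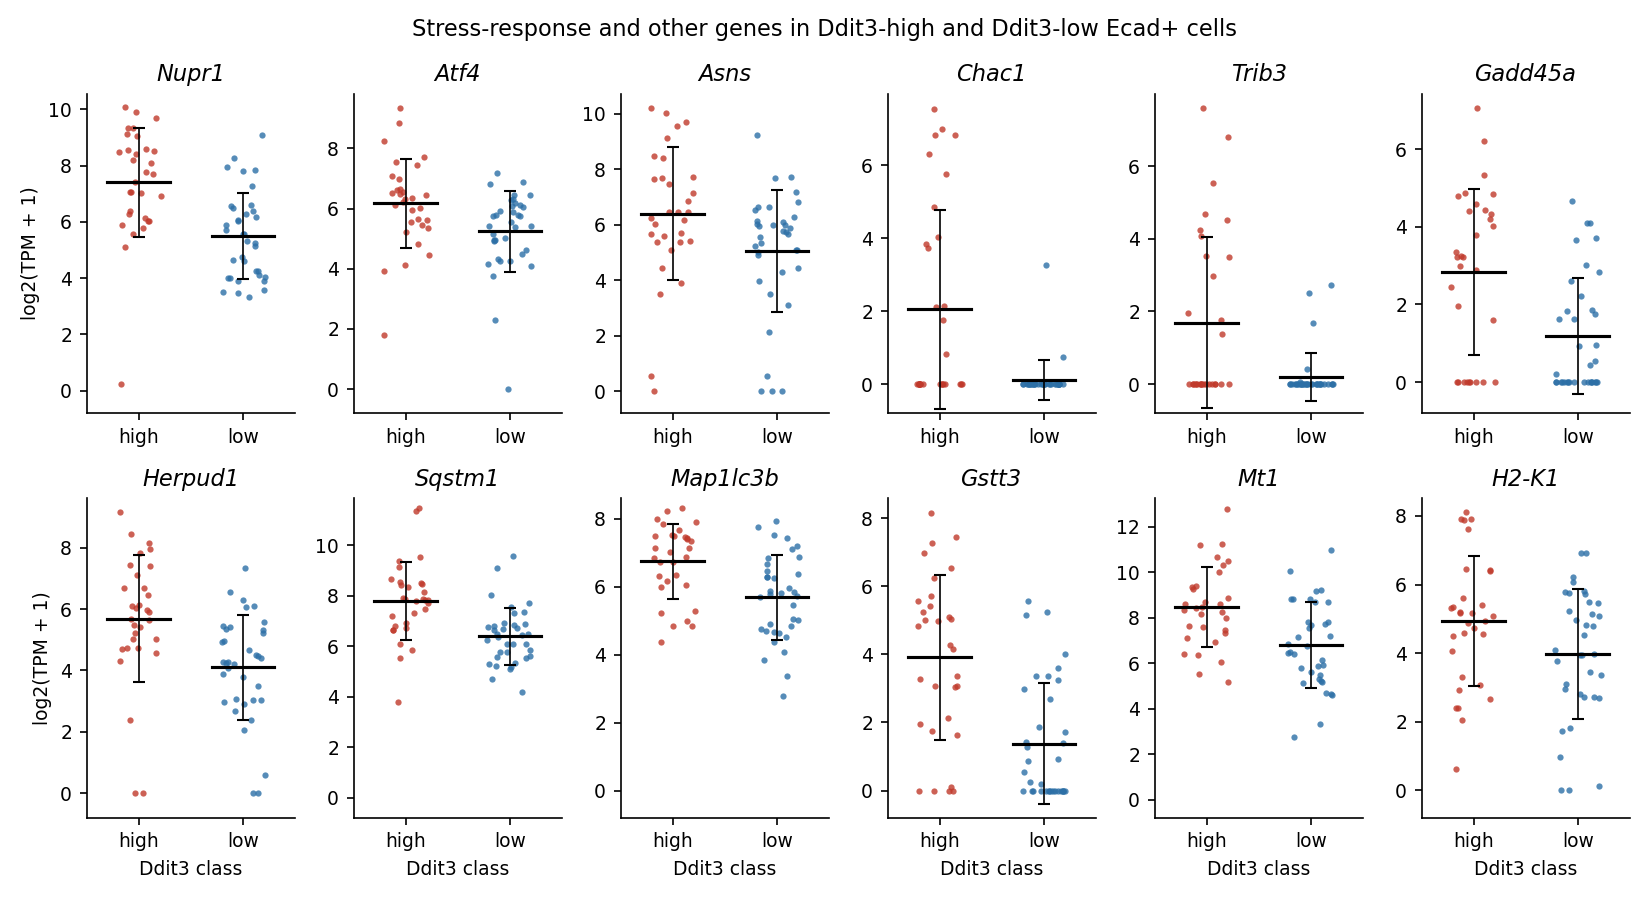
Levels of 12 genes on the log2(TPM + 1) scale in Ddit3-high (left, n = 31) and Ddit3-low (right, n = 36) Ecad+ cells, a point per cell, with the mean and SD over cells. Nupr1, Sqstm1 and Mt1 are shifted over most Ddit3-high cells, while Chac1 and Trib3 are at 0 in most cells of both classes and high in some Ddit3-high cells.

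Upstream sequences of 4 higher stress genes are shown because each holds the core of the composite site to which ATF4 and C/EBP proteins bind, TGATGNAA, on either strand and marked in capitals. The 250 bases before each gene's start are from RefSeq on GRCm38.p6.
Nupr1 (chr7:126625471-126625720, minus strand): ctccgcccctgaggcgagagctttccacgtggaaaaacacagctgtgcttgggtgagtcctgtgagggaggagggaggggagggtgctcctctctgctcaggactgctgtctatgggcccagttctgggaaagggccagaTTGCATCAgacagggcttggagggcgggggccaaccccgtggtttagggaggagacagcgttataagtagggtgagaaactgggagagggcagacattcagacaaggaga
Chac1 (chr2:119350992-119351241, plus strand): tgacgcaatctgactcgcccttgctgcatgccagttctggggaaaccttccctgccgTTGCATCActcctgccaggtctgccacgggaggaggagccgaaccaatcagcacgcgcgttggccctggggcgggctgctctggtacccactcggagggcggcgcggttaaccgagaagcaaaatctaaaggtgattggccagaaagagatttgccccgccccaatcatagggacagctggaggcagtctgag
Asns (chr6:7693210-7693459, minus strand): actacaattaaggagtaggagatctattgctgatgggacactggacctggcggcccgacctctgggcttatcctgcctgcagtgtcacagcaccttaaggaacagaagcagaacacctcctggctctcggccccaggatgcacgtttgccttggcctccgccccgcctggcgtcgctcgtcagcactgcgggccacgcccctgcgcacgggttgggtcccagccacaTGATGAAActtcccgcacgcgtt
Herpud1 (chr8:94386179-94386428, plus strand): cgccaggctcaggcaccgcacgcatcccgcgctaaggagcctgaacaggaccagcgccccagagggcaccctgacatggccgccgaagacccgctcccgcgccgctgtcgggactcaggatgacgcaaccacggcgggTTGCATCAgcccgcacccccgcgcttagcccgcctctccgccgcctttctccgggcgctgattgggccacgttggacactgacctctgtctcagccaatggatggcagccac
In the window from 250 bases before to 50 after the start, these letters occurred in 4.07% of 27025 promoters and in 1.81% of the 5038 genes past the filter that have an entry. They occurred in 5 of 25 stress-response regulators (20.0%), namely Atf3, Chac1, Fgf21, Nupr1 and Trib3, and in 4 of 17 genes of amino acid synthesis (23.5%), namely Asns, Got1, Pck2 and Pycr1. Of the 117 genes higher past the fold that have an entry, 11 held them (9.40%), against 1 of 119 lower genes (0.840%). Both lists were drawn up around this stress response, so their shares are a description only, and Fgf21 and Pck2 did not pass the filter. The windows of Ddit3 and Sqstm1 do not hold these letters, nor do those of Gadd45a, Crebrf and Gdf15, which were higher past the fold. A match describes letters only, not binding.

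Chac1, Trib3 and Asns were also counted together in single cells, a group chosen after their values were seen. At least 2 of the 3 reached 10 TPM in 11 of 31 Ddit3-high cells (35.5%, 19.2% to 54.6%), in 4 of 33 cells between the limits (12.1%, 3.40% to 28.2%) and in 0 of 36 Ddit3-low cells (0% to 9.74%). In Ddit3-high cells this was 5 of 10, 3 of 7 and 4 of 15 cells in sets 1 to 3. Asns alone reached 10 TPM in 29 of 31 Ddit3-high and 30 of 36 Ddit3-low cells, so the count turns on Chac1 and Trib3. All 3 reached it in 7 of 31 Ddit3-high cells and in 0 of 36 Ddit3-low cells. The other 20 Ddit3-high cells had at most 1 of the 3 at that level. The cell with the most Ddit3 (895 TPM) had 1054 TPM of Asns, 112 TPM of Chac1, 191 TPM of Trib3 and 2598 TPM of Sqstm1. The cell at 465 TPM had 761 TPM of Asns, 188 TPM of Chac1, 111 TPM of Trib3 and 2862 TPM of Sqstm1. The cell at 507 TPM differed from both, with 178 TPM of Asns, 53.5 TPM of Chac1, 10.3 TPM of Trib3 and a Ppp1r15a level of 262 TPM, the highest among Ddit3-high cells. Mitochondrial genes took 7.07% of TPM in the cell at 895 TPM of Ddit3, 0.269% in that at 465 TPM and 26.8% in that at 507 TPM.

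Enzymes that make amino acids under ATF4 control did not differ in the same way across library sets. The list median was 0.50 over 14 of 19 genes past the filter, but 1.84 in set 1 and -0.25 and -0.23 in sets 2 and 3. Without set 1 it was -0.28, and without the 4 cells above 100 TPM of Ddit3 it was 0.10. Of the 14 genes 2 were higher past the fold, beside 2.34% of all genes. Asns, asparagine synthetase, was 1 of the 2, with 86.1 TPM (0 to 1195) in Ddit3-high cells and 51.2 TPM (0 to 610) in Ddit3-low cells, a difference of 1.34. The Asns difference was 0.98 without the 4 cells above 100 TPM of Ddit3 and 0.96 both without the 3 cells under 10% mitochondrial share and without library set 1, under the fold in each. The other was Gpt2, a mitochondrial alanine aminotransferase, with a difference of 1.11, or 0.75 without library set 1. It averaged under 5 TPM in Ddit3-low cells and passed the filter through the other cells. Asns medians were 349, 86.1 and 64.8 TPM in Ddit3-high cells of sets 1, 2 and 3, against 40.6, 39.3 and 51.2 TPM in Ddit3-low cells. Cytosolic aminoacyl-tRNA synthetases had a median of 0.56, with 1.41, 0.17 and 0.15 within sets, and 0 of the 20, all of which passed the filter, were past the fold. Amino acid transporters had a median of 0.26, with 1.04, 0.12 and 0.0033 within sets, and 0 of the 6 past the filter, of 14, were past the fold. For Slc3a2, the shared heavy chain of several transporters, the difference was 0.72.

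Genes of protein folding and disposal in the ER were mostly slightly higher. Over 32 of 41 genes the median was 0.48 (0.67, 0.20 and 0.28 within sets). Of these genes 3 were higher past the fold, beside 2.34% of all genes, and 0 lower. Herpud1, an ER membrane protein of ER-associated degradation, had 58.5 TPM (0 to 570) in Ddit3-high cells and 18.5 TPM (0 to 159) in Ddit3-low cells, a difference of 1.59. Derl1, a channel of the same pathway, differed by 1.12, or by 0.85 without library set 1. Xbp1, the transcription factor that IRE1 activates by splicing, had 25.2 TPM (5.84 to 420) in Ddit3-high and 11.8 TPM (0 to 109) in Ddit3-low cells, a difference of 1.01, or 0.94 and 0.85 without these 4 and these 3 cells. It was 0.62 without library set 2, and 0.12 and 0.45 within the ranges of the G2/M score given below, so Xbp1 passed the fold by little and in none of these. Spliced and unspliced Xbp1 cannot be told apart in gene values. Hspa5, the chaperone BiP, had 154 TPM (50.3 to 990) in Ddit3-high cells and 117 TPM (37.3 to 866) in Ddit3-low cells, and its difference was 0.61, 0.66 and 0.62 in the 3 sets, under the fold. Relative to the all-gene median the list stood at 0.29.

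Autophagy and lysosome genes were higher as a group. Of 42 genes, 35 passed the filter, and 34 of these had a difference above 0, against 4612 of all 6829 genes. Past the fold, 6 were higher, beside 2.34% of all genes, and 0 lower. The median was 0.61, with 0.80, 0.68 and 0.25 within sets, and 0.42 relative to all genes. Sqstm1, the autophagy receptor p62, had 229 TPM (12.7 to 2862) in Ddit3-high cells and 83.1 TPM (17.2 to 755) in Ddit3-low cells, a difference of 1.40. It was above the Ddit3-low median in 27 of 31 Ddit3-high cells. Map1lc3b, the LC3 protein of autophagosome membranes, had 129 TPM (19.6 to 320) in Ddit3-high and 54.6 TPM (5.90 to 245) in Ddit3-low cells, a difference of 1.06. The autophagy receptor gene Calcoco1, the proton pump subunit genes Atp6v0d1 and Atp6v1d, and Neu1, a lysosomal sialidase, differed by 1.35, 1.17, 1.11 and 1.11. Calcoco1 averaged under 5 TPM in Ddit3-low cells. Without 1 library set, Atp6v0d1 (0.86 without set 2) and Atp6v1d (0.95 without set 1) were under the fold. The transcription factor Tfeb, a regulator of lysosome genes, did not pass the filter.

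Genes of glutathione and metal defence were next. All 24 NRF2 and glutathione genes that passed the filter, of 26, had a difference above 0, against 4612 of all 6829 genes. Of the 24 genes, 20 exceeded the all-gene median. This list stood at a median of 0.47 (0.71, 0.52 and 0.14 within sets). Past the fold, 4 of its genes were higher, beside 2.34% of all genes. These were the metallothioneins Mt1 and Mt2, Gstm1 and Hmox1. Mt1 had 345 TPM (35.0 to 6885) in Ddit3-high cells and 98.5 TPM (5.64 to 2024) in Ddit3-low cells, a difference of 1.67. Mt2, its neighbour on chromosome 8, had 11.7 TPM (0 to 472) in Ddit3-high and 0.0600 TPM (0 to 91.6) in Ddit3-low cells. Hmox1, heme oxygenase, differed by 1.10. Gstm1 differed by 1.52, but by 0.80 without library set 2, under the fold. The gene with the largest difference of all was Gstt3, a theta-class glutathione transferase, at 18.5 TPM (0 to 285) in Ddit3-high cells and 0.322 TPM (0 to 46.6) in Ddit3-low cells. Its difference was 2.53, and 2.51, 2.13 and 2.26 within sets. Gstt1 and Ddt, a homologue of the cytokine MIF, differed by 1.85 and 1.49. Gstt3, Gstt1 and Ddt lie side by side on chromosome 10, at 75774115 to 75781414, 75783813 to 75798584 and 75771230 to 75773414 (mm10). Reads of Gstt3 and Gstt1, and of Mt1 and Mt2, which are near copies, may have been split between them, so the values of each are uncertain. Others in the 12 with the largest smallest-set difference were Slc35a1, a CMP-sialic acid transporter, Wdr45, an autophagy factor, Trnau1ap, which aids selenocysteine insertion, and Iah1, an esterase, with differences of 1.21, 1.41, 1.14 and 1.60.

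Genes of G2 phase and mitosis were lower in Ddit3-high cells. All 43 listed genes passed the filter, all had a difference below 0, and 38 were lower past the fold, beside 2.4% of all genes. The median was -1.92, with -1.36, -2.32 and -1.62 within sets. Ube2c, the ubiquitin-conjugating enzyme of the anaphase-promoting complex, had a median of 6.02 TPM (0 to 2095) in Ddit3-high cells and 666 TPM (0 to 1708) in Ddit3-low cells, a difference of -3.36. Ccnb1, cyclin B1, had 0.418 TPM (0 to 996) in Ddit3-high cells and 226 TPM (0 to 796) in Ddit3-low cells, a difference of -2.84. Cdc20, the activator of the same complex, had 0.233 TPM (0 to 454) in Ddit3-high cells and 94.0 TPM (0 to 322) in Ddit3-low cells, a difference of -2.49. The ranges overlapped almost fully, and each class held cells with and without these RNAs. Birc5, Nusap1, Aurka, Tacc3 and Cdca3 differed by -2.61, -2.60, -2.22, -2.28 and -2.33. Casc5, Knstrn and Ckap2l, kinetochore and spindle genes outside the list, differed by -2.64, -2.26 and -2.13. As a ratio of arithmetic mean TPM the list median was -0.83. At a G2/M score of 3 or more, defined below, Knstrn and Ckap2l differed by 0.087 and 0.22. The score is built from genes of the same kind, so the split itself may set these 2 values.

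Upstream sequences of Ube2c and Cdc20 are shown because each holds TTTGAA, the letters of the cell cycle gene homology region (CHR), on either strand and in capitals. They are the 250 bases before the start, from RefSeq on GRCm38.p6.
Ube2c (chr2:164769679-164769928, plus strand): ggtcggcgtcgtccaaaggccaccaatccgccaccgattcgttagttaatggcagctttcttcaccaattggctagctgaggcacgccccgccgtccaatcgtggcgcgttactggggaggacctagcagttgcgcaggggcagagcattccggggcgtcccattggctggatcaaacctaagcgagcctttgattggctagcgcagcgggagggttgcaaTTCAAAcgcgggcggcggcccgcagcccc
Cdc20 (chr4:118437344-118437593, minus strand): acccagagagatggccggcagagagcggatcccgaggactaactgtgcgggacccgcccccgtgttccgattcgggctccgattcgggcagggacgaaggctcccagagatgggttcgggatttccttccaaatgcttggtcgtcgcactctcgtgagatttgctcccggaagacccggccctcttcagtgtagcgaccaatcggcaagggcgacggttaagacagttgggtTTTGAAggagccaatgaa
In windows of 300 bases TTTGAA occurred in 18.1% of all promoters, in 12.2% of those of genes past the filter, in 28 of 37 G2/M promoters (75.7%), and in 3 of 27 G1/S promoters (11.1%). CCAAT, on either strand, occurred in 37.8% of all promoters, in 29 of 37 G2/M promoters (78.4%) and in 14 of 27 G1/S promoters (51.9%). The Ccnb1 window holds CCAAT and not TTTGAA.

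Cell by cell, the G2/M genes lay in 2 ranges. The G2/M score, the mean log2(TPM + 1) over the 43 genes, had a gap between 2.70 and 3.27 over all Ecad+ cells, and a limit of 3 was set after these values were seen, with 3 cells within 0.5 of it. Another gap lay just below, between 2.07 and 2.70, and the cell at 2.70 was Ddit3-high. The score was under 3 in 19 of 31 Ddit3-high cells (61.3%, 42.2% to 78.2%) and in 7 of 36 Ddit3-low cells (19.4%, 8.19% to 36.0%). In the cells between the limits it was under 3 in 4 of 33 (12.1%, 3.40% to 28.2%), close to the Ddit3-low share. Within library sets these cells were 7 of 10, 3 of 7 and 10 of 15 Ddit3-high cells, against 4 of 10, 0 of 13 and 3 of 14 Ddit3-low cells. A high Ddit3 level was thus found in cells of both ranges, and 12 Ddit3-high cells had a score of 3 or more. Among the 11 Ddit3-high cells with at least 2 of Chac1, Trib3 and Asns at 10 TPM, 9 had a score under 3, against 10 of the other 20. In Ecad- cells a score under 3 was found in 55 of 82 Ddit3-high cells (67.1%, 55.8% to 77.1%) and in 8 of 13 Ddit3-low cells (61.5%, 31.6% to 86.1%). Over all 100 Ecad+ cells, which share 1 line and 3 library sets, Spearman's rho between Ddit3 and the score was -0.26.

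**Figure D3:**
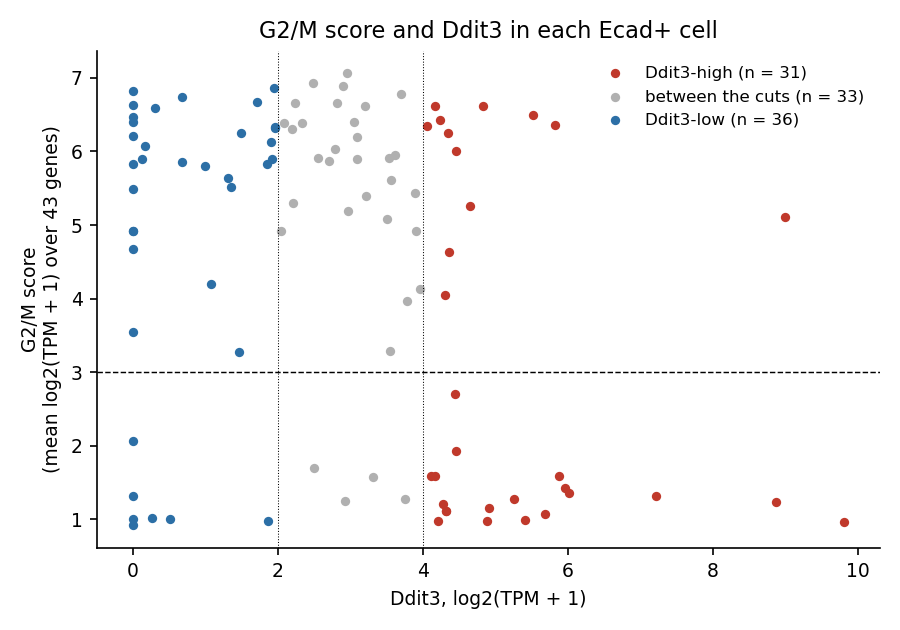
G2/M score (mean log2(TPM + 1) over 43 genes) against Ddit3 on the log2(TPM + 1) scale in each Ecad+ cell, with the score limit of 3 dashed and the Ddit3 limits dotted. Of the Ddit3-high cells 19 of 31 lie under the score limit, against 7 of 36 Ddit3-low cells, and few cells lie near it.

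Genes of G1/S and DNA replication were lower to a smaller extent, and least in set 1. Of 35 genes past the filter, of 37, 8 were lower past the fold, beside 2.4% of all genes, and 0 were higher. The median was -0.68, with -0.06, -0.91 and -1.07 within sets. Rrm2, a subunit of ribonucleotide reductase, had 20.3 TPM (0 to 246) in Ddit3-high and 129 TPM (0 to 285) in Ddit3-low cells, a difference of -2.26. Mcm10 and Cdc45, genes of replication, differed by -1.55 and -1.52. Mki67, the proliferation marker, is 1 of the 43 G2/M genes given above. It had a median of 0.00953 TPM (0 to 24.9) in Ddit3-high cells and 10.4 TPM (0 to 28.7) in Ddit3-low cells. Inhibitors of the cycle did not mirror these genes. Over 15 of 28 p53 targets and inhibitors of cyclin-dependent kinases the median was 0.45 (0.15, -0.02 and 0.40 within sets). Beside 2.34% of all genes, 2 of the list were higher past the fold, Gadd45g and Rrm2b. Rrm2b averaged under 5 TPM in Ddit3-low cells, and its difference was 1.00, or 0.96 without library set 1. That of Gadd45g was 1.00, and 0.78 and 0.74 without sets 2 and 3. Cdkn1a, the inhibitor p21, had 11.2 TPM (0 to 582) in Ddit3-high cells and 8.07 TPM (0 to 141) in Ddit3-low cells, with set differences of 1.89, 0.59 and -0.81.

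Because the classes differed in G2/M score, stress genes were also set side by side within each range of the score, an added alternative chosen after seeing the data. Among cells with a score under 3, Nupr1 had a median of 276 TPM (33.7 to 1078) in 19 Ddit3-high cells and 155 TPM (64.4 to 538) in 7 Ddit3-low cells. Among cells with a score of 3 or more it had 80.1 TPM (0.169 to 646) in 12 Ddit3-high cells and 26.3 TPM (9.14 to 249) in 29 Ddit3-low cells. The differences were 0.68 and 1.51. Nupr1 was thus higher in Ddit3-high cells of both ranges, and in either class it was higher where the score was low. Sqstm1 had 321 TPM in Ddit3-high and 162 TPM in Ddit3-low cells under 3, and 112 TPM in Ddit3-high and 67.2 TPM in Ddit3-low cells at 3 or more, with differences of 1.01 and 0.62. The median of the stress-response regulators was 0.92 under 3 and 0.53 at 3 or more. That of the autophagy and lysosome genes was 0.50 and 0.15 in the same order. Ppp1r15a, Atf3 and Cdkn1a took opposite signs in the ranges. The median of the immediate early list kept its sign in all 20 alternatives, both ranges among them. Ppp1r15a had 21.3 TPM in Ddit3-high and 40.6 TPM in Ddit3-low cells under 3, and 27.1 TPM in Ddit3-high and 24.2 TPM in Ddit3-low cells at 3 or more, with differences of -0.70 and 0.38. Atf3 differed by -0.13 under 3 and by 0.68 at 3 or more, and Cdkn1a by -0.88 and 1.24.

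Some of the genes with large differences differed more in 1 range of the score. Gstm1 had 157 TPM (25.3 to 1529) in Ddit3-high and 42.9 TPM (3.34 to 243) in Ddit3-low cells under 3, but 15.2 TPM (0 to 177) in Ddit3-high and 17.3 TPM (0 to 365) in Ddit3-low cells at 3 or more, where the difference was -0.36. For Gstt1 the differences were 2.43 and 0.22, and for Gstt3 2.52 and 1.17. Mt1 went the other way, with 0.59 and 1.35. Only 7 Ddit3-low cells had a score under 3, and none of them was in library set 2.

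**Figure D4:**
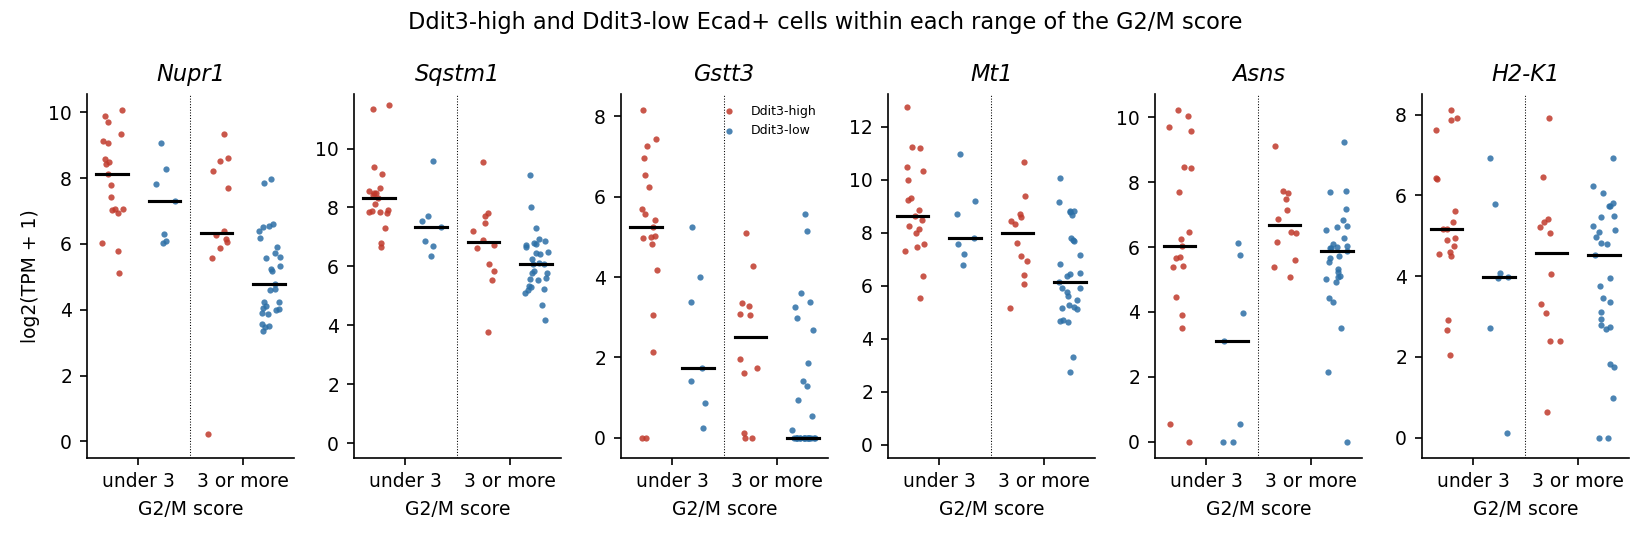
Levels of 6 genes on the log2(TPM + 1) scale in Ddit3-high and Ddit3-low Ecad+ cells, side by side for a G2/M score under 3 (19 and 7 cells) and of 3 or more (12 and 29 cells), a point per cell, with bars at the medians. Nupr1 and Sqstm1 medians are higher in Ddit3-high cells in both ranges, while H2-K1 differs little at 3 or more.

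Genes of class I antigen presentation differed little, and in set 3 their median was close to that of all genes. All 12 genes past the filter, of 22, had a difference above 0, 9 of them above the all-gene median, with a list median of 0.44 (0.41, 0.56 and 0.05 within sets), and 0 were past the fold. H2-K1, a class I heavy chain, had 32.7 TPM (0.544 to 276) in Ddit3-high cells and 15.3 TPM (0 to 121) in Ddit3-low cells. Its difference of 0.96 turned with the set, at 1.26, -0.27 and 1.64. B2m, the shared light chain, had 304 TPM (42.8 to 612) in Ddit3-high and 193 TPM (27.2 to 537) in Ddit3-low cells, a difference of 0.47. It was 0.17 without library set 2 and -0.18 at a G2/M score of 3 or more, and in set 3 the median was 304 TPM in Ddit3-high and 409.8 TPM in Ddit3-low cells. Tapbp, the peptide-loading factor tapasin, differed by 0.92. Relative to the all-gene median the list stood at 0.25, and it was 0.13 when each cell was rescaled without mitochondrial and ribosomal protein genes.

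The epithelial program differed little. Over 16 of 25 epithelial genes the median was 0.29 (0.39, 0.35 and -0.04 within sets), and 0 were past the fold. The Cdh1 difference was 0.08, and -0.10 relative to the all-gene median. Krt19, a ductal keratin, had 883 TPM (292 to 3234) in Ddit3-high cells and 648 TPM (128 to 2278) in Ddit3-low cells. Only 5 of 25 mesenchymal genes passed the filter, with a median of 0.23. Of 24 hypoxia and glycolysis genes past the filter 3 were higher past the fold, beside 2.34% of all genes. These 3 were Pfkp, a phosphofructokinase, Ndrg1, and Ankrd37, a target of the hypoxia factor HIF-1, with differences of 1.77, 1.46 and 1.03. Ankrd37 differed by 0.22 without library set 3, and Ndrg1 by 0.87 without the 4 cells above 100 TPM of Ddit3. Cytosolic heat shock genes had a median of 0.13, and -0.06 relative to all genes, with 0 of the 16 past the filter past the fold. All 13 mitochondrially encoded messenger RNAs had a difference below 0, against 2217 of all 6829 genes. Their median was -0.69 (-1.20, -0.66 and -0.21 within sets), and 0 were past the fold. Without the 3 cells under 10% mitochondrial share this median was -0.30, and that of the stress-response regulators was 0.75. Medians of the other pathway lists were 0.46 for immediate early genes, 0.34 for interferon response genes, 0.29 for ribosomal protein genes and 0.25 for mitochondrial chaperones and proteases. They were 0.18 for apoptosis genes, 0.16 for TGF-beta response genes, 0.15 for cholesterol and fatty acid synthesis, 0.11 for NF-kB targets and cytokines, and -0.03 for genes driven by MAPK signalling. In these 9 lists 2 genes were past the fold, beside 2.34% of all genes higher and 2.4% lower. Tnfaip2, 1 of 9 NF-kB targets and cytokines past the filter, was higher by 1.01 (0.72 without library set 1). Birc5, 1 of 17 apoptosis genes past the filter and also a mitosis gene, was lower.

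**Figure D5:**
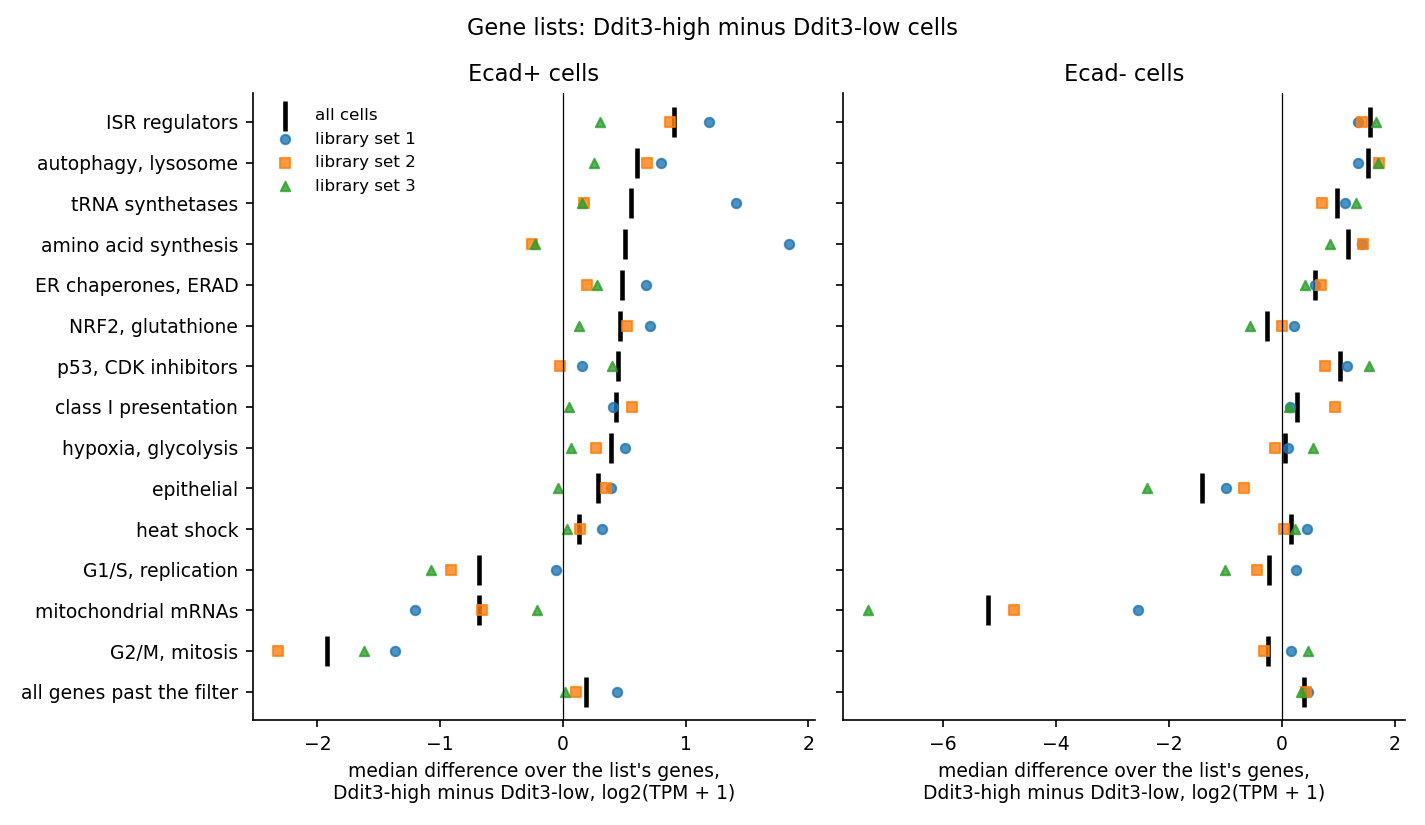
Median difference over the genes of each list, Ddit3-high minus Ddit3-low cells, in Ecad+ cells (left) and in Ecad- cells (right, on its own scale), with a bar for all cells and a symbol for each library set. In Ecad+ cells G2/M genes are lowest at -1.92 and stress-response regulators highest at 0.91, and in Ecad- cells mitochondrial messenger RNAs are lowest at -5.21.

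Ranked by how closely they followed Ddit3 over all 100 Ecad+ cells, the first 10 genes were Nupr1, Ndufb9, Sqstm1, Rsph3b, Scnm1, Ndufs7, Gstt3, Hagh, Spg21 and Wdr45. Spearman's rho was 0.49 for Nupr1, 0.45 for Sqstm1, 0.43 for Gstt3 and 0.42 for Wdr45, over cells that share 1 line and 3 library sets. Ndufb9 and Ndufs7, subunits of respiratory complex I encoded in the nucleus, differed by 0.64 and 0.63 between the classes, under the fold. Hagh, a glyoxalase that detoxifies methylglyoxal, had 148 TPM (32.0 to 468) in Ddit3-high and 60.3 TPM (22.8 to 283) in Ddit3-low cells, a difference of 1.03, or 0.79 without library set 1. Atf4 had a rho of 0.39.

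The same limits were applied to Ecad- cells, which share no cell with the Ecad+ classes, to see whether the difference looks alike there. Of 7427 genes past the filter in Ecad- cells, 1460 were higher past the fold (19.7%) and 431 lower (5.8%). The classes held 82 Ddit3-high and 13 Ddit3-low cells. The Ddit3-low cells numbered 6, 4 and 3 in library sets 1 to 3, so within-set values in Ecad- cells rest on few cells. The mitochondrial share had a median of 1.60% in these Ddit3-high cells and 33.0% in these Ddit3-low cells, a far wider gap than in Ecad+ cells. Without the 40 Ddit3-high Ecad- cells under 1%, 800 genes were higher and 240 lower. The stress-response regulators had a median of 0.91 in Ecad+ cells, against 1.56 in Ecad- cells, and autophagy and lysosome genes 0.61 in Ecad+ cells, against 1.52 in Ecad- cells. Without the cells under 1% these Ecad- medians were 1.09 and 0.94. G2/M genes had a median of -1.92 in Ecad+ cells, against -0.25 in Ecad- cells, where it was 0.15, -0.32 and 0.46 within sets. Epithelial genes had 0.29 in Ecad+ cells, against -1.42 in Ecad- cells. Ppp1r15a differed by 0.11 in Ecad+ cells, against 3.40 in Ecad- cells, and Cdkn1a by 0.45 in Ecad+ cells, against 3.56 in Ecad- cells. None of these differences between the 2 fractions was tested. Across 6489 genes past both filters, which are not independent replicates, the Pearson correlation of the 2 sets of differences was 0.09. Of the 155 genes higher past the fold in Ecad+ cells that passed the filter in Ecad- cells, 31.6% were also higher past the fold there, and these were 4.22% of the 1160 genes higher in Ecad- cells that passed the filter in Ecad+ cells. Of the 145 genes lower past the fold in Ecad+ cells that passed the filter in Ecad- cells, 12.4% were also lower past the fold there, and these were 4.22% of the 427 genes lower in Ecad- cells that passed the filter in Ecad+ cells. The median Ecad- difference was 0.63 for the higher genes of Ecad+ cells, -0.14 for the lower ones and 0.40 for all genes past the Ecad- filter.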

How the data were processed

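Single-cell RNA was amplified with the SMARTer chemistry on the C1 device and made into Nextera XT libraries, per the labels' protocols; no molecular identifiers or strand are named. The authors deposited 1 table of log2(TPM + 1) values for 28987 gene rows and 202 libraries. Per the submitters' processing notes, kallisto, FastQC 0.11.5 and mm10 were used, with no further settings given in the sources used here. TPM keeps no read depth, so depth is unknown. It sums to between 933711 and 987134 per library after the log2 transform is undone.

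Genes were matched by identifier to GENCODE M21. Libraries correlated above 0.97 were averaged. The difference was that of the mean log2(TPM + 1), with a pseudocount of 1 TPM, pooled and within each library set with at least 3 cells of each class. The filter kept genes that averaged 5 TPM or more over Ecad+ cells and were detected in 10% of them or more. No test was made, since each sorted fraction is 1 sample. Shares have exact Clopper-Pearson 95% intervals.

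The cells, limits and gene lists were chosen with earlier results of these data known. Named genes were 15 fixed ones, in each list the genes that differed most, 4 at most, the 12 highest and 12 lowest by the smallest within-set difference where genes averaged 20 TPM or more and were detected in 25% of Ecad+ cells or more, and the 10 genes that followed Ddit3 most closely by Spearman's rho. Further members and neighbours of these genes, and the single cells described, were chosen after their values were seen. The 2 gene models without a proper symbol that the rule met were passed over. Alternatives changed the mean, pseudocount, filter, scaling, library sets, pairs, limits and cells. Python 3.11.15, numpy 2.4.6, pandas 2.3.3 and scipy 1.17.1 were used.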

Additional observations from a re-analysis of the deposited data

Results flagged for a closer look

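For the 5 genes given here, the difference between Ddit3-high and Ddit3-low cells had 1 sign in each library set of Ecad+ cells. It had the opposite sign in each library set of Ecad- cells. How many of all genes past the filter share this pattern is not given. The Ecad- values rest on 6, 4 and 3 Ddit3-low cells in library sets 1 to 3. The difference between the 2 fractions was not tested. Gstm1, a glutathione transferase, differed by 1.52 in Ecad+ and by -1.98 in Ecad- cells. Cycs, cytochrome c, differed by -0.74 in Ecad+ and by 0.93 in Ecad- cells. Mvd, an enzyme of cholesterol synthesis, differed by 0.87 in Ecad+ and by -1.54 in Ecad- cells. Ctgf, a matricellular protein, differed by 0.69 in Ecad+ and by -1.79 in Ecad- cells. Psme2, a proteasome activator subunit, differed by 0.69 in Ecad+ and by -0.73 in Ecad- cells.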

How the results depend on the processing

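Over 24 lists and 20 alternatives, 424 of 474 list medians moved by less than the SD of the 3 library-set values, 39 moved more, and 11 turned in lists that had 1 sign in each set. In all, 34 of the 474 had the opposite sign, among them 8 each for NF-kB targets and MAPK genes, whose medians lay near 0. The number of genes past the fold depends on most choices. Higher genes numbered 241 with arithmetic mean TPM, 288 and 20 with pseudocounts of 0.1 and 10 TPM, 89 with a minimum mean of 20 TPM, 69 centred, 98 rescaled without mitochondrial and ribosomal protein genes, 296 and 420 without library sets 2 and 3, 504 with Ddit3 of 5 or more, 63 with 1 limit at 3, and 103 without the cells under 10% mitochondrial share. Lower genes numbered 55 with arithmetic mean TPM, 326 and 38 with pseudocounts of 0.1 and 10 TPM, 106 with a minimum mean of 20 TPM, 318 rescaled, 307 without library set 1, 412 with Ddit3 of 5 or more, and 97 with 1 limit at 3. Of the alternatives chosen after seeing the data, a G2/M score under 3 gave 1217 higher genes from 2 library sets. Those sets held 4 and 3 Ddit3-low cells under 3. A score of 3 or more gave 38 lower genes, but the split itself limits how far G2/M genes can differ within a range. Where only 2 library sets were used, the same sign was needed in fewer sets, so those counts do not compare with 160 and 164. In Ecad- cells of at least 1% mitochondrial share 800 genes were higher and 240 lower. The cause of the other moves was not tested.

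The G2/M median was -0.83 with arithmetic means, -2.83 and -0.96 with pseudocounts of 0.1 and 10 TPM, -1.40 without library set 2, -2.50 with Ddit3 of 5 or more and -1.39 with 1 limit at 3. The stress-response regulators had 1.36 without library set 3 and 1.39 with Ddit3 of 5 or more, and G1/S genes -1.55 with that limit. Genes of ER folding had 0.21 rescaled and 0.21 without library set 1. Autophagy and lysosome genes had 0.32 rescaled and 0.15 at a score of 3 or more, and amino acid synthesis 1.97 under 3. Signs turned for amino acid synthesis (-0.28 without library set 1), amino acid transport (-0.055 without library set 1), heat shock (-0.058 centred, -0.14 rescaled, -0.00017 without the cells with the fewest genes, -0.049 at a score of 3 or more), hypoxia (-0.016 at 3 or more), mesenchymal genes (-0.0060 with no minimum mean, -0.028 under 3) and TGF-beta genes (-0.030 centred, -0.11 rescaled, -4.3e-06 with Ddit3 of 5 or more). At a score of 3 or more Gstm1 stood at -0.36, Ckap2l at 0.22 and Knstrn at 0.087. For Ckap2l and Knstrn the split itself may set these values.

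No paired analysis was possible because each sorted fraction is 1 sample, no result comes from a test, and the numbers in the library titles count single cells. Depth, dropout of low genes and the meaning of the library sets are unknown, and single cells of 1 line do not measure variation between cultures.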
